A study of Homo sapiens and Mus musculus with 20 samples.

Results

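A485, a small molecule that blocks the catalytic acetyltransferase domain of p300 and of its close relative CBP, was given to IMR90 cells, and the transcriptome was compared with that of untreated IMR90 cells. IMR90 is an established line of human fetal lung fibroblasts. The comparison held 4 of the 20 bulk RNA-seq libraries of the study, 2 labelled A485 and 2 labelled Control2, chosen by their titles. The remaining libraries came from IMR90 cells with MS-275 or pyruvate, from mouse muscle with MS-275 or NALA, and from the control that belonged to each. The labels give all 4 libraries as wild-type lung fibroblasts of this line, with the treatment A485 in one group and none in the other, so the 2 groups shared 1 genetic background. The study gives a dose of A485 for its staining of IMR90 cells, but not the dose or the time for these libraries. It is not stated whether the 2 libraries of a group came from separate cultures, so the p-values measure the spread between libraries, which may be technical. Libraries are called control 1, control 2, A485 1 and A485 2 below, after the replicate number in their titles.

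p300 and CBP transfer acetyl groups to lysines of histone tails, above all at active enhancers, and serve as coactivators for many transcription factors that respond to signals. p300 has also been held to write histone lactylation, the mark that the study followed. Fibroblasts are the main makers of collagen and other matrix in the lung, and in culture they also express a contractile program, secrete growth factors and take up amino acids at a high rate. These are the gene groups that the account below follows, by role, beside groups that hardly moved.

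The promoter sequences of 5 genes are shown first because their groups, ATF4 targets, tRNA synthetases and histone genes, each had calls in 1 direction only. Each run is the 250 bases before the RefSeq start, 5′ to 3′ on the strand of the gene, from the RefSeq table of GRCh38.p14. Gene positions elsewhere are those of the GENCODE annotation of the same build, hg38, and may start at another transcript. In the first 3, which fell after A485, capitals mark a match to TGATGNAAN, the C/EBP-ATF response element (CARE) to which ATF4 is known to bind, on the strand opposite to the gene. The match began 210 bases before the start of CHAC1 (chr15:40953221-40953470, plus strand), 188 before that of AARS1 (chr16:70289507-70289756, minus strand) and 14 before that of IARS1 (chr9:92293698-92293947, minus strand). In the other 2, histone H2B genes that rose, capitals mark TATAAA and CCAAT on either strand, here in H2BC21 (chr1:149886683-149886932, minus strand) and H2BC5 (chr6:26157871-26158120, plus strand).
CHAC1: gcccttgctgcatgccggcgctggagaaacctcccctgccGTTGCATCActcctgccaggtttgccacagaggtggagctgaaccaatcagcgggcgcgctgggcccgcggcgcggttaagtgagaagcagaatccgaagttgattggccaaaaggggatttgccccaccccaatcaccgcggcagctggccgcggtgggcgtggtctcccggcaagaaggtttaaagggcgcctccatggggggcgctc
AARS1: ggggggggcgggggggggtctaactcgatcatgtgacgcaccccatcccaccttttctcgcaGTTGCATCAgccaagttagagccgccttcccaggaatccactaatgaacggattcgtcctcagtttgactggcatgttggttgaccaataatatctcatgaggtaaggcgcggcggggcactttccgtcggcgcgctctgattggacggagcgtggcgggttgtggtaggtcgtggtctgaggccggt
IARS1: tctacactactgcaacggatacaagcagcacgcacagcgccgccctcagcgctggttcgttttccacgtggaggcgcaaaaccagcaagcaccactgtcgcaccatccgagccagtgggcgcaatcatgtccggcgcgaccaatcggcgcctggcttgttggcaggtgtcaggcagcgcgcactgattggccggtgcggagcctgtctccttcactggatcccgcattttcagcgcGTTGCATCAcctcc
H2BC21: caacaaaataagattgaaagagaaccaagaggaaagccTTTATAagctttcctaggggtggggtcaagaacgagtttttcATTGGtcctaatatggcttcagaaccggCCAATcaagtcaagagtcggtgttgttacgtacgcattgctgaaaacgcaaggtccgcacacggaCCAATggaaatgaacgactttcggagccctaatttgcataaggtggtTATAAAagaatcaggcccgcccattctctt
H2BC5: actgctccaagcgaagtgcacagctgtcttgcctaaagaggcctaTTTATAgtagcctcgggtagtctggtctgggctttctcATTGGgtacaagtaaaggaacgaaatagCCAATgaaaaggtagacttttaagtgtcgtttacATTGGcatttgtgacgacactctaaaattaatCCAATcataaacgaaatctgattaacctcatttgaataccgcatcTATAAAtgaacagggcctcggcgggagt
In the 300 bases that the RefSeq table gives per gene, 250 before and 50 after the start, TGATGNAAN was found on either strand in 6 of 28 promoters of ATF4 target genes and in 6 of 16 of cytosolic tRNA synthetases, against 188 of 11150 promoters of tested genes, or 1.69%. TATAAA stood in 20 of 31 histone promoters against 5.74% of all, and CCAAT in 25 of 31 against 36.2%. Overlaps between these motifs were not counted. A match describes these letters only, and whether a factor binds there was not measured.

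The 4 libraries were of nearly equal depth, between 39194881 and 40557867 reads over the 16683 genes listed. Mitochondrial genes held 4.09% to 6.90% of reads, and the 10 genes with most reads held 9.39% and 10.5% in the control libraries against 6.94% and 7.99% in the A485 libraries. Values below are normalized read counts, reads per gene that the authors divided by a DESeq2 size factor for each library. Replicates differed well beyond counting noise: of 16084 genes tested, 1777 lay over 1 log2 unit apart between the A485 libraries and 2519 between the control libraries. Proliferation genes were among them. MKI67, the Ki-67 proliferation antigen, measured 8396 and 2553 in the control libraries and 1639 and 1919 in the A485 libraries, so control 1 stood apart and control 2 lay close to both A485 libraries. TOP2A, the mitotic topoisomerase, measured 9379 and 3459 in the control libraries and 2879.9 and 2326 in the A485 libraries, and CCNB1, the mitotic cyclin B1, 7713 and 1776 in the control libraries and 1681 and 1660.3 in the A485 libraries, in the same order. None of these 3 genes was called by limma. Of 36 proliferation genes limma called 1 lower, edgeR 1 and DESeq2 11, and limma with the replicate number as a block 12. Their median log2 fold change was -0.98, and it became -0.12 without control 1 and -1.74 without control 2, with 0 and 13 members called lower. What part this spread had in the results below was not tested, and counts or medians without each library are given for the lists on which the account rests.

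**Figure D1:**
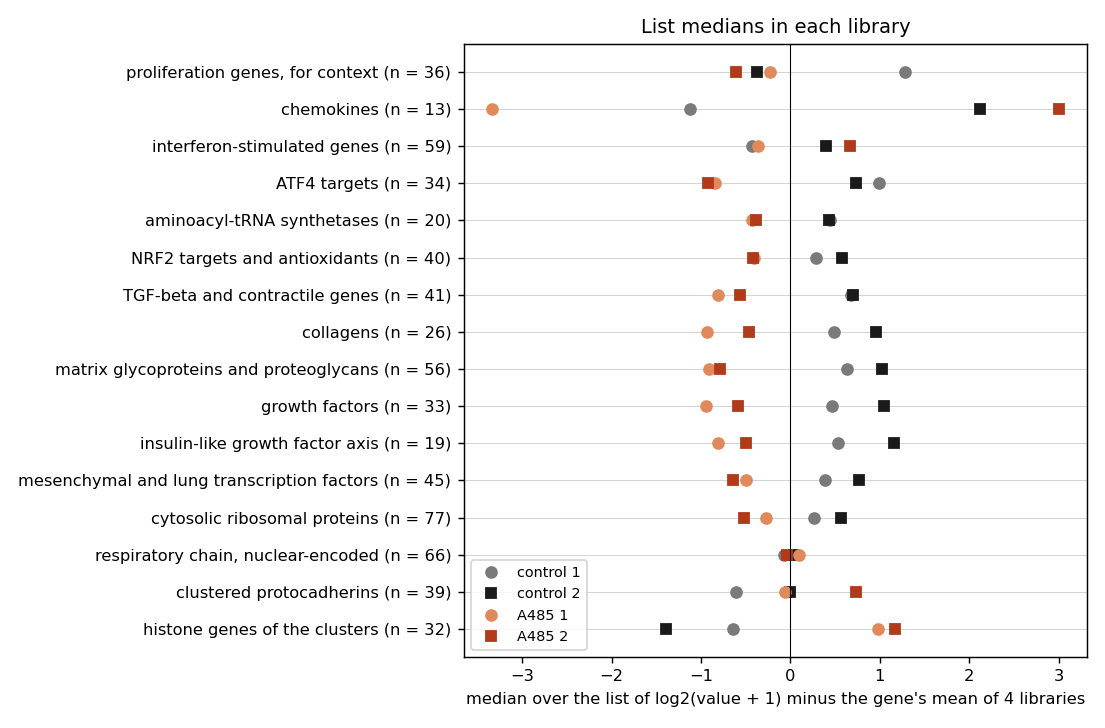
Each point is the median, over the tested members of a gene list, of log2(value + 1) in 1 library minus the mean of that gene over the 4 libraries; grey and black mark the control libraries, light and dark orange the A485 libraries. Proliferation genes set control 1 apart from the other 3 libraries and chemokines followed the replicate number, whereas both A485 libraries lay below both control libraries for the ATF4 list and above them for the histone list.

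The fibroblast label was met by its markers, all 12 of which were listed. Their summed value was 2055189 and 2574088 in the control libraries and 566361 and 682792 in the A485 libraries, so every A485 library lay below every control library. Among these markers, 10 of 12 fell and COL1A2 and S100A4 were not called. Of 4 lung fibroblast markers, FOXF1 and TCF21 fell, TBX5 measured 1512 and 1527 in the control libraries and 1289 and 936 in the A485 libraries and was not called, and TBX4 lay under the mean of 10 needed for a test. Of the markers of other cells, 4 of 10 epithelial, 3 of 6 endothelial, 2 of 6 leukocyte, 2 of 5 muscle and 3 of 5 neural genes were listed, and PTPRC, PECAM1, CDH1, NKX2-1, MYOD1 and SOX10 were not. The summed leukocyte markers lay between 22.5 and 46.3, the epithelial ones at 2718 and 3089 in control and 1265 and 1608 after A485, and the endothelial ones at 508 and 1289 in control and 189 and 127 after A485. EPCAM, an epithelial adhesion molecule, rose from 64.2 and 47.7 in control to 208 and 177 after A485, while KRT18 and KRT19, keratins of simple epithelia, were lower and KRT8 was not called. In bulk RNA, fewer cells of a type and less RNA per cell cannot be told apart.

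Of 16084 genes with a mean of at least 10, 532 (3.31%) were higher and 1135 (7.06%) lower after A485, at a limma adjusted p under 0.05 with a change of more than 1 on the log2 scale. In all 1667 the groups did not overlap, as in 61.0% of all genes tested. The excess of falls over rises depended on the scaling: with libraries scaled to equal totals the median of all genes moved from 0.0088 to 0.40, with 1671 genes higher and 915 lower, and with quantile normalization to 0.12, with 751 higher and 1011 lower. Gene groups are therefore read against that shift, and directions that flip are named. When 1 library is left out a group holds 1 library and far fewer genes pass: 3 higher and 114 lower without A485 1, 2 and 165 without A485 2, 196 and 648 without control 1, and 106 and 414 without control 2. Of 61 gene lists described by role, 35 had a share called lower of more than 2 times the 7.06% over all genes, and 49 had a median below 0, while the medians of 15 lists changed sign under at least 1 other scaling.

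**Figure D2:**
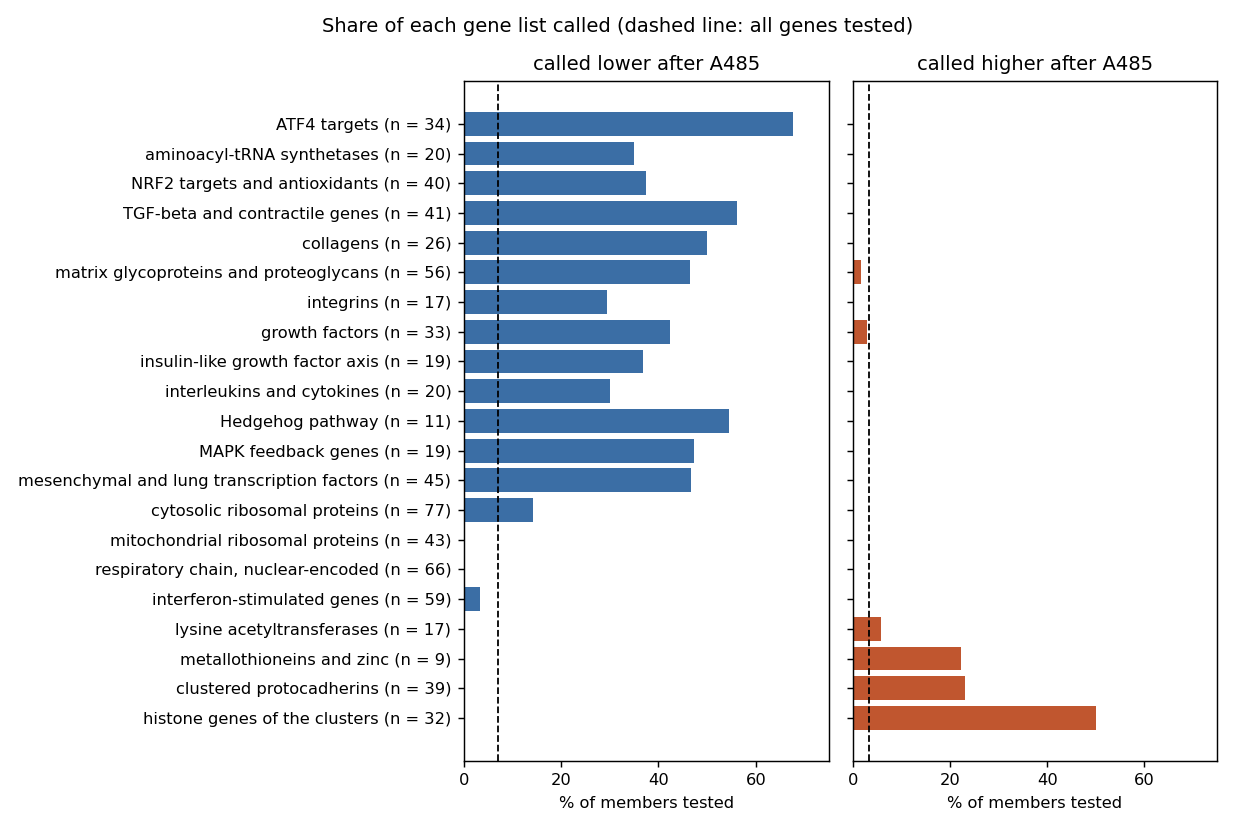
Bars give the percentage of tested members of each gene list called lower (left) or higher (right) after A485, and dashed lines the share over all 16084 genes, 7.06% and 3.31%. ATF4 targets had the longest bar on the left and histone genes on the right, and the respiratory chain and the mitochondrial ribosome had none.

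The genes of the enzymes under inhibition were not called. EP300, which encodes p300, measured 4569.6 and 4628 in the control libraries and 4105 and 6943 in the A485 libraries (log2 fold change 0.22, SE 0.27, limma adjusted p 0.63). CREBBP, which encodes CBP, measured 4604 and 4268 in the control libraries and 3919.9 and 5482 in the A485 libraries (log2 fold change 0.06, SE 0.21, limma adjusted p 0.863). For both genes A485 1 lay below and A485 2 above the control libraries, so the groups overlapped; inhibition of the protein need not change its transcript. Of 17 acetyltransferase genes, only KAT2B, which encodes PCAF, was called, and it rose from 665 and 699 in control to 2084 and 1846 after A485 (log2 fold change 1.52, SE 0.19, limma adjusted p 0.00733). Of 36 genes for deacetylases and bromodomain proteins, only HDAC5, a class II deacetylase, was called, at 1357 and 1967 in control against 764 and 614 after A485 (log2 fold change -1.25, SE 0.25, limma adjusted p 0.0306). HEXIM1, an inhibitor of the elongation factor P-TEFb, rose from 2674 and 2028 in control to 7943 and 6663 after A485, and ELL2, a subunit of the super elongation complex, fell from 13861 and 13997 in control to 3491 and 3637 after A485. They were the only calls among 41 Mediator and elongation genes, and none of 38 splicing genes was called in either direction by limma, edgeR or DESeq2, with 6 at an unadjusted p under 0.05 by limma and 1 called higher with equal totals.

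Most of the ATF4 targets measured were lower. Of 34 tested targets of ATF4, the transcription factor that raises amino acid synthesis and import when amino acids are scarce, 23 were lower and none higher, against 7.06% and 3.31% of all genes, with a median log2 fold change of -1.84. Among the 20 members for synthesis and transport, 16 were lower and all 20 had a fold change below 0. Of 14 other amino acid transporters, none of them in the ATF4 list, 5 were lower, 9 not called and none higher, 2 without control 1, 1 without control 2, 0 without A485 1 and 0 without A485 2. SLC7A11, the cystine importer (chromosome 4, 138164097 to 138242349), measured 18151 and 12749 in the control libraries and 105 and 266 in the A485 libraries (log2 fold change -6.50, SE 0.45, limma adjusted p 0.00184). Both A485 libraries were far below both control libraries. SLC1A5, a glutamine carrier, measured 12502 and 11892 in the control libraries and 1356 and 1375 in the A485 libraries (log2 fold change -3.16, SE 0.15, limma adjusted p 0.00089). SLC7A5, the large subunit of the leucine exchanger LAT1, measured 20524 and 11572 in the control libraries and 2734 and 2628 in the A485 libraries (log2 fold change -2.52, SE 0.28, limma adjusted p 0.00587). In all 3 transporters the groups were well apart. PSAT1, an enzyme of serine synthesis, measured 14861 and 11949 in the control libraries and 1622 and 1313 in the A485 libraries (log2 fold change -3.19, SE 0.20, limma adjusted p 0.00128), and PYCR1, which makes proline, 4651 and 4472 in the control libraries and 426 and 316 in the A485 libraries (log2 fold change -3.63, SE 0.21, limma adjusted p 0.00117). SLC38A2, which imports small neutral amino acids, showed a smaller fall, with 74598 and 57569.8 in the control libraries and 29780.0 and 19635 in the A485 libraries (log2 fold change -1.44, SE 0.28, limma adjusted p 0.0282).

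The stress factors of the same list moved less evenly, with 7 of 14 lower. CHAC1, a glutathione-degrading enzyme (chromosome 15, 40952962 to 40956512) whose promoter is printed above, measured 2198 and 2408 in the control libraries and 298 and 316 in the A485 libraries (log2 fold change -2.90, SE 0.20, limma adjusted p 0.00179). ATF4 itself (chromosome 22, 39519695 to 39522683) measured 19676 and 18780.3 in the control libraries and 7523 and 7235 in the A485 libraries (log2 fold change -1.38, SE 0.16, limma adjusted p 0.00659). GDF15, a secreted stress signal, measured 1203 and 2537 in the control libraries and 170.2 and 217 in the A485 libraries (log2 fold change -3.18, SE 0.39, limma adjusted p 0.00741). Replicates lay close together for CHAC1 and ATF4 and further apart for GDF15 in control. The count of ATF4 targets called lower was 18 without control 1, 15 without control 2, 7 without A485 1 and 8 without A485 2, and 21 with equal library totals.

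The enzymes that load tRNAs with amino acids moved the same way by smaller steps. Of 20 cytosolic tRNA synthetases, 7 were lower and none higher, and 19 had a fold change below 0, with a median of -0.91. AARS1, for alanine (chromosome 16, 70251983 to 70289707), measured 9053 and 8924 in the control libraries and 2108 and 2324 in the A485 libraries (log2 fold change -2.02, SE 0.16, limma adjusted p 0.00239). WARS1, for tryptophan, measured 13108 and 18028 in the control libraries and 3466 and 4790.2 in the A485 libraries (log2 fold change -1.92, SE 0.24, limma adjusted p 0.00832), and YARS1, for tyrosine, 11629 and 9793 in the control libraries and 2975 and 3379 in the A485 libraries (log2 fold change -1.75, SE 0.18, limma adjusted p 0.00438). In each of the 3 the groups were well apart and the replicates close. GARS1, for glycine, IARS1, for isoleucine, and SARS1, for serine, had log2 changes of -1.59, -1.43 and -1.08. The count called lower was 5 without control 1, 4 without control 2, 0 without A485 1 and 1 without A485 2.

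Among genes for the handling of oxidants, known targets of NRF2, the regulator of the oxidant response, were called lower more often than the others. Whether NRF2 activity changed was not tested. Of 23 NRF2 targets, 14 were lower and all 23 had a fold change below 0, whereas only 1 of 17 other antioxidant genes was called. SLC7A11, counted above among the ATF4 targets, was also among the NRF2 targets. NQO1, a quinone reductase (chromosome 16, 69706996 to 69726668), measured 17924 and 20360.4 in the control libraries and 1689.8 and 1315 in the A485 libraries (log2 fold change -3.68, SE 0.19, limma adjusted p 0.000989). TXNRD1, the cytosolic thioredoxin reductase, measured 83534 and 57332 in the control libraries and 11541 and 12375 in the A485 libraries (log2 fold change -2.53, SE 0.24, limma adjusted p 0.00374). Both genes lay far below control in each A485 library. TKT, the transketolase of the pentose phosphate pathway, measured 18825 and 18418 in the control libraries and 3960.4 and 3581 in the A485 libraries (log2 fold change -2.31, SE 0.16, limma adjusted p 0.00189). Its replicates were close to each other within each group. AKR1C1, an aldo-keto reductase whose near-identical relatives may share its reads, measured 1781 and 2095 in the control libraries and 196 and 146 in the A485 libraries (log2 fold change -3.50, SE 0.25, limma adjusted p 0.00199). Of the ferritin chains that store iron, FTH1 fell (log2 fold change -1.56, SE 0.33, limma adjusted p 0.0335) and FTL, at 115148 and 218639 in control against 91580.1 and 118659 after A485, was not called. For the 17 other antioxidants the median of -0.38 turned positive with equal totals and with quantile normalization. For the whole list of 40, the count called lower was 12 without control 1, 10 without control 2, 5 without A485 1 and 5 without A485 2.

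Contractile genes had the highest share called lower of any role with more than 20 tested members. Of 23 contractile and cytoskeletal genes, 19 were lower and none higher, with a median log2 fold change of -1.86. The count called lower was 8 without control 1, 9 without control 2, 3 without A485 1 and 4 without A485 2. ACTG2, the gamma smooth muscle actin (chromosome 2, 73892314 to 73919865), measured 21489.9 and 25333 in the control libraries and 326 and 238 in the A485 libraries (log2 fold change -6.38, SE 0.22, limma adjusted p 0.000721), and ACTA2, the alpha smooth muscle actin by which activated fibroblasts are recognised, 14301 and 15727 in the control libraries and 582 and 678 in the A485 libraries (log2 fold change -4.57, SE 0.17, limma adjusted p 0.000721). CNN1, which encodes the actin-binding protein calponin, measured 3284 and 3601 in the control libraries and 406 and 314 in the A485 libraries (log2 fold change -3.26, SE 0.21, limma adjusted p 0.0015). In all 3 the replicates were close and the groups far apart. The broadly expressed cytoskeletal genes moved by less: FLNA, a filamin that crosslinks actin, measured 181196 and 192566 in the control libraries and 30993 and 53735 in the A485 libraries (log2 fold change -2.19, SE 0.33, limma adjusted p 0.0131). TPM4, a tropomyosin, had a log2 change of -1.93 and MYH9, a non-muscle myosin heavy chain, of -1.55.

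TGF-beta signalling genes moved less, with 4 of 18 ligands, receptors and SMADs lower, 4 without control 1, 3 without control 2, 1 without A485 1 and 2 without A485 2. INHBA, the activin A subunit (chromosome 7, 41667168 to 41705834), measured 9352 and 10707 in the control libraries and 228 and 338 in the A485 libraries (log2 fold change -5.17, SE 0.24, limma adjusted p 0.000812). SMAD3, the factor that carries TGF-beta signals to the nucleus, measured 18972 and 22648 in the control libraries and 3960.4 and 4780.4 in the A485 libraries (log2 fold change -2.25, SE 0.19, limma adjusted p 0.00268). Both stood far apart between groups. The whole list of 41 had 23 lower and none higher, 12 without control 1, 12 without control 2, 4 without A485 1 and 6 without A485 2, and 18 with equal library totals.

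Of 26 collagen genes, 13 were lower and none higher. COL6A3, a chain of the beaded collagen VI (chromosome 2, 237324003 to 237414328), measured 194813 and 335562 in the control libraries and 9588 and 13378 in the A485 libraries (log2 fold change -4.50, SE 0.34, limma adjusted p 0.00221). COL16A1, a fibril-associated collagen, measured 4374 and 9426 in the control libraries and 151 and 183 in the A485 libraries (log2 fold change -5.27, SE 0.38, limma adjusted p 0.00193). In both, control 2 was higher than control 1 and the A485 libraries lay far below either. The chains of collagen I, the main fibre of lung matrix, moved by less: COL1A1 (chromosome 17, 50184101 to 50201632) measured 620946 and 655334 in the control libraries and 171288 and 194065 in the A485 libraries (log2 fold change -1.81, SE 0.35, limma adjusted p 0.0269), and COL1A2 measured 396683 and 498409 in the control libraries and 175781 and 205457 in the A485 libraries and was not called (log2 fold change -1.23, SE 0.35, limma adjusted p 0.071). COL15A1, COL13A1 and COL8A1, of basement membrane, cell surface and network collagens, had log2 changes of -5.93, -3.01 and -2.91. The count of collagens called lower was 5 without control 1, 3 without control 2, 2 without A485 1 and 4 without A485 2. Genes that process collagen had 7 of 26 members lower and none higher, with 22 below 0 and 4 above. Their median of -0.71 ranged from -0.88 to -0.64 when 1 library was left out. LOX, which starts crosslinking, measured 78266 and 60540.3 in the control libraries and 8356 and 12211 in the A485 libraries (log2 fold change -2.77, SE 0.26, limma adjusted p 0.00363), and SERPINH1, the collagen chaperone HSP47, 55618 and 49143 in the control libraries and 16175 and 17452 in the A485 libraries (log2 fold change -1.64, SE 0.19, limma adjusted p 0.0067).

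Of 56 matrix glycoproteins and proteoglycans, 26 were lower, 29 not called and 1 higher, with a median of -1.68. DCN, decorin, which coats collagen fibrils (chromosome 12, 91140484 to 91183217), measured 74843 and 102927 in the control libraries and 3906 and 3867 in the A485 libraries (log2 fold change -4.50, SE 0.21, limma adjusted p 0.000888). FN1, fibronectin, measured 493873 and 712926 in the control libraries and 126774 and 165749 in the A485 libraries (log2 fold change -2.03, SE 0.38, limma adjusted p 0.0244), and THBS1, thrombospondin 1, 104236 and 171244 in the control libraries and 18172 and 19481 in the A485 libraries (log2 fold change -2.83, SE 0.29, limma adjusted p 0.00461). In all 3 the groups were apart by more than the replicates. NID2 and LAMA4, of the basement membrane, and VCAN, the proteoglycan versican, had log2 changes of -4.51, -5.10 and -2.78. SPARC, a collagen-binding glycoprotein, fell by a log2 change of -1.21. LAMB2, a laminin chain chosen after its values were seen, was the one that rose, from 16724 and 11593 in control to 30316 and 42617 after A485 (log2 fold change 1.37, SE 0.27, limma adjusted p 0.0292). The count of the list called lower was 22 without control 1, 13 without control 2, 8 without A485 1 and 9 without A485 2. Of 5 inhibitors of matrix proteases 1 was lower. TIMP1, the best known of them, measured 32412 and 29448 in the control libraries and 35006 and 23826 in the A485 libraries, overlapped between groups and was not called, and its log2 change of -0.10 turned positive with equal totals and with quantile normalization. Among 17 integrin subunits, the receptors for matrix, 5 were lower, 2 without control 1, 2 without control 2, 0 without A485 1 and 1 without A485 2. ITGA11, which pairs with the beta 1 chain to bind collagen, measured 1554 and 2999.9 in the control libraries and 195 and 265 in the A485 libraries (log2 fold change -3.24, SE 0.36, limma adjusted p 0.00568).

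**Figure D3:**
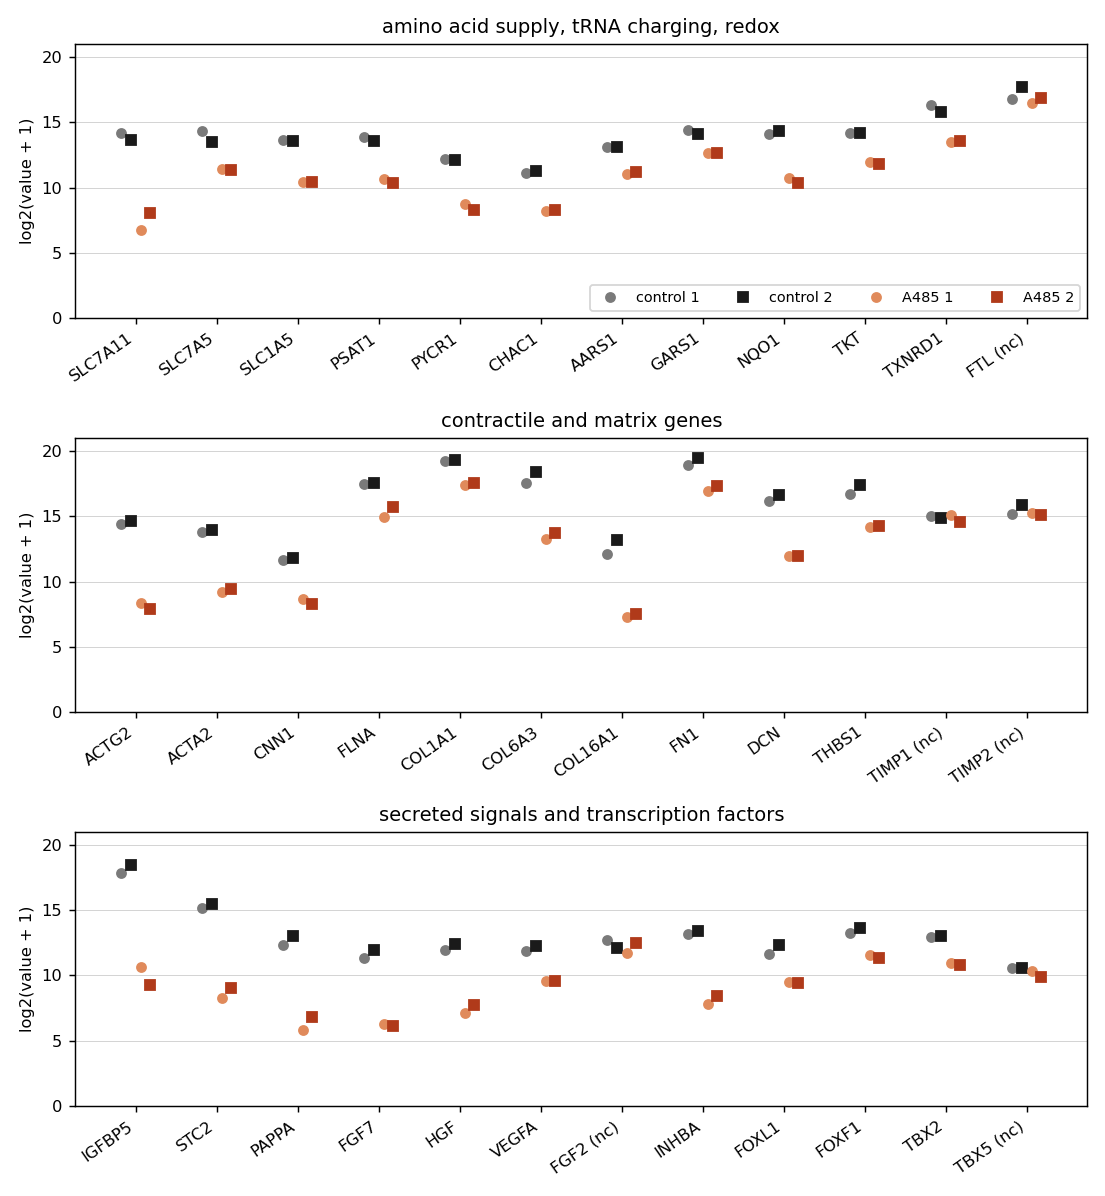
Points give log2(value + 1), where the value is the normalized read count, in control 1, control 2, A485 1 and A485 2 (left to right within each gene) for genes of 3 groups; nc marks genes that were not called. For SLC7A11, ACTG2 and IGFBP5 the A485 libraries lay more than 5 log2 units below control, while those of FTL and TIMP1 overlapped the control libraries.

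Of 33 growth factor genes, 14 were lower, 18 not called and 1 higher, with a median of -1.80. FGF7, the keratinocyte growth factor that mesenchyme sends to epithelium (chromosome 15, 49423237 to 49488775), measured 2626 and 3908 in the control libraries and 78.4 and 70.4 in the A485 libraries (log2 fold change -5.41, SE 0.28, limma adjusted p 0.000989). HGF, the hepatocyte growth factor (chromosome 7, 81699010 to 81770438), measured 4003 and 5466 in the control libraries and 138 and 212 in the A485 libraries (log2 fold change -4.76, SE 0.29, limma adjusted p 0.0012). In both the A485 libraries lay far below both control libraries. VEGFA, which drives vessel growth, measured 3677 and 4988 in the control libraries and 757 and 755 in the A485 libraries (log2 fold change -2.50, SE 0.21, limma adjusted p 0.0026), and KITLG, the ligand of the receptor KIT, 4439 and 4109 in the control libraries and 785 and 679 in the A485 libraries (log2 fold change -2.55, SE 0.18, limma adjusted p 0.00189). HBEGF, a growth factor of the EGF family chosen after its values were seen, was the one that rose, from 1288 and 802 in control to 2672 and 3591 after A485 (log2 fold change 1.61, SE 0.28, limma adjusted p 0.0212). The count of growth factors called lower was 13 without control 1, 10 without control 2, 5 without A485 1 and 6 without A485 2. Among 21 receptor tyrosine kinases 6 were lower, 5 without control 1, 3 without control 2, 2 without A485 1 and 1 without A485 2. PDGFRB, the PDGF receptor of mesenchymal cells (chromosome 5, 150113839 to 150155872), measured 14289 and 17152 in the control libraries and 1756 and 1980.0 in the A485 libraries (log2 fold change -3.07, SE 0.18, limma adjusted p 0.00117). PDGFRA had a log2 change of -2.84 and KIT of -3.49.

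In the insulin-like growth factor axis, the calls lay mostly outside the ligands and receptors. All 13 binding proteins and related genes, the mRNA-binding IGF2BP family included, had a fold change below 0 and 6 were lower, with a median of -2.06. Of 6 ligands, receptors and substrates only IRS1 was lower. IGFBP5 (chromosome 2, 216672105 to 216695549), a binding protein that also attaches to matrix, measured 238534 and 366446 in the control libraries and 1607 and 625 in the A485 libraries (log2 fold change -8.20, SE 0.46, limma adjusted p 0.00117). PAPPA, a protease that cleaves binding proteins, measured 5235 and 8461 in the control libraries and 56.5 and 114 in the A485 libraries (log2 fold change -6.36, SE 0.40, limma adjusted p 0.00132), and STC2, a secreted inhibitor of that protease, 36397 and 45361 in the control libraries and 306 and 525 in the A485 libraries (log2 fold change -6.66, SE 0.29, limma adjusted p 0.000812). In all 3 both A485 libraries lay far below both control libraries. IRS1, the docking protein under the receptors, measured 10198 and 13837 in the control libraries and 1081 and 1429.6 in the A485 libraries (log2 fold change -3.26, SE 0.23, limma adjusted p 0.00192). The whole list of 19 had 7 lower, 8 without control 1, 6 without control 2, 4 without A485 1 and 4 without A485 2.

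Morphogen pathways had calls among ligands and antagonists, few of which passed with an A485 library left out. Among 13 BMP ligands and antagonists, 6 were lower with a median of -3.18, 6 without control 1, 6 without control 2, 1 without A485 1 and 1 without A485 2. GREM1, a BMP antagonist (chromosome 15, 32718004 to 32745106), measured 7308 and 5535 in the control libraries and 233 and 319.8 in the A485 libraries (log2 fold change -4.54, SE 0.24, limma adjusted p 0.0011), and FST, which binds activin, 29942 and 11224 in the control libraries and 399 and 405 in the A485 libraries (log2 fold change -5.51, SE 0.44, limma adjusted p 0.00239). Control 1 held more FST than control 2, and both A485 libraries lay far below. FSTL1, a related secreted protein, was not called, at 128925 and 90391 in control against 117679.6 and 133510.2 after A485. GDF15, counted above with the ATF4 stress factors, was also among the 13 BMP ligands and antagonists and lay at their median. Among 11 Wnt ligands and antagonists 6 were lower, 3 without control 1, 3 without control 2, 0 without A485 1 and 0 without A485 2. WNT5A, a non-canonical ligand, measured 17565 and 36863 in the control libraries and 2883 and 4062 in the A485 libraries (log2 fold change -2.89, SE 0.37, limma adjusted p 0.00861), and DKK1, a Wnt antagonist, 4640.2 and 1447 in the control libraries and 124 and 117 in the A485 libraries (log2 fold change -4.42, SE 0.53, limma adjusted p 0.00707). The frizzled receptor FZD7 fell by a log2 change of -2.02, and FZD5 rose by 2.50 from few reads (27.8 and 53.9 in control against 187 and 267 after A485). In the Hedgehog pathway 6 of 11 genes were lower. PTCH1, the receptor that is also a target, measured 1198 and 1022 in the control libraries and 292 and 229.8 in the A485 libraries (log2 fold change -2.09, SE 0.25, limma adjusted p 0.00678), and GLI1, the other common target, 222 and 121 in the control libraries and 30.3 and 30.3 in the A485 libraries (log2 fold change -2.40, SE 0.47, limma adjusted p 0.0291). The other 5 genes were not called. The Hedgehog count called lower was 0 without control 1, 1 without control 2, 0 without A485 1 and 0 without A485 2. NOTCH1, a receptor of the Notch pathway, measured 2234 and 1988 in the control libraries and 396 and 487 in the A485 libraries (log2 fold change -2.26, SE 0.21, limma adjusted p 0.00355), one of 6 lower among 15 Notch genes, of which there were 2 without control 1, 1 without control 2, 0 without A485 1 and 1 without A485 2.

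Genes by which growth factor signalling limits itself were lower in 9 of 19 cases. DUSP6, a phosphatase of ERK, measured 963 and 1898 in the control libraries and 196 and 179.9 in the A485 libraries (log2 fold change -2.84, SE 0.36, limma adjusted p 0.00818). SPRY4, an inhibitor of receptor signalling, measured 1595 and 1836 in the control libraries and 520.0 and 654 in the A485 libraries (log2 fold change -1.55, SE 0.21, limma adjusted p 0.0106), and ETV4, a factor induced by FGF signals, 481 and 488 in the control libraries and 96.9 and 63.2 in the A485 libraries (log2 fold change -2.61, SE 0.35, limma adjusted p 0.00923). DUSP1, another phosphatase of this list, was not called, with 6162 and 5662 in control against 10573 and 5739.7 after A485. The count was 7 without control 1, 3 without control 2, 0 without A485 1 and 0 without A485 2. Among 27 AP-1 and early response genes, which answer such signals first, 5 were lower and 2 higher, with 3 without control 1, 2 without control 2, 2 without A485 1 and 2 without A485 2 lower. FOSL1 fell (4968 and 5832 in control against 370.0 and 698 after A485) and KLF2 and JUND rose (540.4 and 879 in control against 3815 and 3232 after A485 for KLF2, 3202 and 4392 in control against 10398 and 8915 after A485 for JUND). JUN, the partner of many AP-1 dimers, was not called (log2 fold change 0.51, SE 0.17, limma adjusted p 0.109).

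Inflammatory genes did not move as 1 group. Of 20 interleukins and other cytokines 6 were lower and none higher, among them TNFSF4, the OX40 ligand, at 8896 and 5059.8 in control against 105 and 65.9 after A485 (log2 fold change -6.31, SE 0.36, limma adjusted p 0.00117), and LIF, which signals through gp130, at 4032 and 3673 in control against 131 and 420.4 after A485 (log2 fold change -4.03, SE 0.52, limma adjusted p 0.00842). The count was 3 without control 1, 3 without control 2, 2 without A485 1 and 2 without A485 2. Of 13 chemokines 2 were lower and 1 higher. CXCL12, a chemoattractant of stem and immune cells, measured 6419.9 and 1202 in the control libraries and 54.8 and 55.2 in the A485 libraries (log2 fold change -5.63, SE 0.73, limma adjusted p 0.00888). CXCL8, the neutrophil chemokine IL-8, measured 305 and 4658 in the control libraries and 7.59 and 12409 in the A485 libraries, and CXCL1, of the same family, 33.2 and 1609 in the control libraries and 8.43 and 11440.1 in the A485 libraries. In both, replicate 2 was higher than replicate 1 in either group, and no direction can be read: the chemokine median of -0.91 ranged from -4.62 to 3.21 when libraries were left out in turn. Among 40 NF-kB pathway genes, 3 (7.5%) were lower and 1 (2.5%) higher, near the 7.06% and 3.31% of all genes, with a median of -0.12 that turned positive with equal totals. Of 59 interferon-stimulated genes 2 were lower and none higher by limma, with 10 at an unadjusted p under 0.05 and a median of 0.26. edgeR called the same numbers, DESeq2 4 lower and 2 higher, and limma 4 higher with equal totals. The library medians of this list followed the replicate number like those of the chemokines, and with the number as a block 4 members were lower and 10 higher. None of 12 genes of MHC class I presentation was called in either direction by limma or edgeR, with 4 at an unadjusted p under 0.05 by limma, 2 called higher by DESeq2 and 3 called higher with equal totals.

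Transcription factors that shape mesenchyme were lower in 21 of 45 cases, none higher, with a median of -1.10. TBX2, a T-box factor of lung mesenchyme (chromosome 17, 61399843 to 61409466), measured 7858 and 8253 in the control libraries and 2019 and 1796 in the A485 libraries (log2 fold change -2.08, SE 0.16, limma adjusted p 0.00239). FOXF1, a forkhead factor of lung mesenchyme (chromosome 16, 86510527 to 86515422), measured 9832 and 12478 in the control libraries and 2999 and 2611 in the A485 libraries (log2 fold change -1.98, SE 0.19, limma adjusted p 0.00377), and FOXL1, a neighbouring forkhead gene on the same chromosome, 3198 and 5275 in the control libraries and 706 and 669 in the A485 libraries (log2 fold change -2.58, SE 0.27, limma adjusted p 0.00466). In each the A485 libraries lay close together and well below control. CREB3L1, which promotes collagen secretion, measured 12903 and 14443 in the control libraries and 2777 and 3725 in the A485 libraries (log2 fold change -2.09, SE 0.20, limma adjusted p 0.00377). The count was 13 without control 1, 7 without control 2, 1 without A485 1 and 3 without A485 2. HOX genes, which hold the body-axis position of fibroblasts, were lower in 2 of 19 cases, HOXB3 and HOXB5, with log2 changes of -1.19 and -1.75. Another 1 was higher, where 7.06% of all genes were lower and 3.31% higher. The HOX median of -0.53 ranged from -0.69 to -0.15 when 1 library was left out.

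Ribosomal protein genes shifted together by a small step. All 77 tested genes of the cytosolic ribosome had a fold change below 0, and 11 were lower. The median of -0.80 became -0.41 with equal totals and -0.35 with quantile normalization, and stayed below 0 under each scaling tried. RPL10, of the large subunit, measured 34319 and 46380.4 in the control libraries and 12775 and 11201 in the A485 libraries (log2 fold change -1.74, SE 0.22, limma adjusted p 0.00825), and RPSA, of the small subunit, 50217 and 56542 in the control libraries and 21927 and 16990.1 in the A485 libraries (log2 fold change -1.47, SE 0.22, limma adjusted p 0.0132); both have processed copies elsewhere in the genome that may take or give reads. RPL3 and RPS2, at log2 changes of -0.89 and -1.04, were not called. The count was 3 without control 1, 0 without control 2, 0 without A485 1 and 0 without A485 2, and 2 with equal totals. Of 33 ribosome biogenesis genes 3 were lower, 1 without control 1, 1 without control 2, 0 without A485 1 and 0 without A485 2, among them FBL, the nucleolar methyltransferase fibrillarin (4086 and 3322 in control against 1360.3 and 1089 after A485). The 9.09% of biogenesis genes called lower lay near the 7.06% of all genes. No shift like that of the ribosomal proteins was seen in genes for mitochondria. None of 66 nuclear-encoded respiratory chain genes was called in either direction by limma, edgeR or DESeq2, with 5 at an unadjusted p under 0.05 by limma, 4 called higher with equal totals and a median of 0.04. None of 43 mitochondrial ribosomal proteins was called by the same 3 tools, with 8 at an unadjusted p under 0.05, 1 called higher with equal totals and a median of -0.12 that turned positive with equal totals. Of 13 protein genes of the mitochondrial genome only MT-ND6 was called: it measured 29112 and 39218 in the control libraries and 130184 and 104483 in the A485 libraries (log2 fold change 1.79, SE 0.26, limma adjusted p 0.0127), and since it lies on the strand opposite to the others and the strand setting is not stated, its reads may include those of other transcripts.

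Many histone genes were higher. Of 32 tested genes for canonical histones and linker histone H1, 16 were higher and none lower, against 3.31% and 7.06% of all genes, with a median log2 fold change of 2.34. The list held 63 genes, and those low in all libraries could not be tested. H1-3, H1-4, H2AC19, H4C4, H4C12 and H4C14 lay under 10 in both control libraries. They passed the mean of 10 only through the A485 libraries, so their direction was fixed by that filter. For members with a mean of at least 50 the median was 2.28. H2B genes were higher in 8 of 11 cases, H3 and H4 genes in 5 of 9, H1 genes in 2 of 4 and H2A genes in 1 of 8. H2BC21 (chromosome 1, 149884459 to 149886682), a histone H2B gene, measured 1306 and 971 in the control libraries and 6383 and 5956 in the A485 libraries (log2 fold change 2.45, SE 0.20, limma adjusted p 0.0026). H2BC5 (chromosome 6, 26158122 to 26171349) measured 294 and 321 in the control libraries and 2351 and 1796 in the A485 libraries (log2 fold change 2.74, SE 0.23, limma adjusted p 0.0026), and H4C8, a histone H4 gene, 319 and 307 in the control libraries and 1727 and 2803 in the A485 libraries (log2 fold change 2.81, SE 0.28, limma adjusted p 0.00408). In all 3 both A485 libraries were several times above both control libraries. H2AC6, an H2A gene, measured 3271 and 3196 in the control libraries and 7048 and 9352 in the A485 libraries (log2 fold change 1.33, SE 0.19, limma adjusted p 0.0121). H2AC20, chosen after its values were seen, was the single member with a fold change below 0, at 33.2 and 22.0 in control against 15.2 and 8.02 after A485, and was not called. Cluster histones have near-identical copies, and most of their transcripts end without a poly(A) tail, so that the RNA selection used, which is not stated, bears on how many are counted. The count called higher was 12 without control 1, 5 without control 2, 1 without A485 1 and 1 without A485 2, and 20 with equal totals.

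The clustered protocadherins, adhesion proteins of which single cells express chosen members, divided by cluster along chromosome 5. All 17 tested alpha and beta members had a fold change above 0 and 9 were higher, with a median of 2.03. PCDHA2, PCDHA4, PCDHA10 and PCDHB4, all called higher, lay under 10 in both control libraries. They reached the mean of 10 needed for a test only through the A485 libraries, so their direction was fixed by that filter. For members with a mean of at least 50 the alpha and beta median was 1.76. That mean includes the A485 libraries too, so the limit remains: PCDHB8 (22.5 and 29.4 in control, 135 and 225 after A485) passed it through A485. By contrast, none of 22 gamma members was called by limma, with 3 at an unadjusted p under 0.05 by limma, none called by edgeR and 1 lower by DESeq2. The gamma median of -0.05 turned positive with equal totals and with quantile normalization. PCDHB5 (chromosome 5, 141135206 to 141138615), a beta member, measured 43.9 and 52.6 in the control libraries and 379 and 525 in the A485 libraries (log2 fold change 3.19, SE 0.36, limma adjusted p 0.00594). PCDHB7 measured 38.5 and 99.1 in the control libraries and 401 and 704 in the A485 libraries (log2 fold change 3.08, SE 0.54, limma adjusted p 0.0212), and PCDHB14 140.2 and 252 in the control libraries and 647 and 876 in the A485 libraries (log2 fold change 2.00, SE 0.36, limma adjusted p 0.0231). The A485 libraries lay above both control libraries in each. PCDHA2 was at 0 in both control libraries and measured 30.3 and 21.4 after A485, at least 15-fold higher against a limit of 3 reads over the control group. Of the gamma members, PCDHGC3, at the far end of the cluster, measured 2427 and 2809 in the control libraries and 841 and 1564 in the A485 libraries (log2 fold change -1.19, SE 0.31, limma adjusted p 0.0595), short of a call. Members share sequence and gamma members share their last exons, so reads may be split between them. The count called higher was 2 without control 1, 3 without control 2, 0 without A485 1 and 0 without A485 2, and 13 with equal totals, all of them alpha or beta members.

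**Figure D4:**
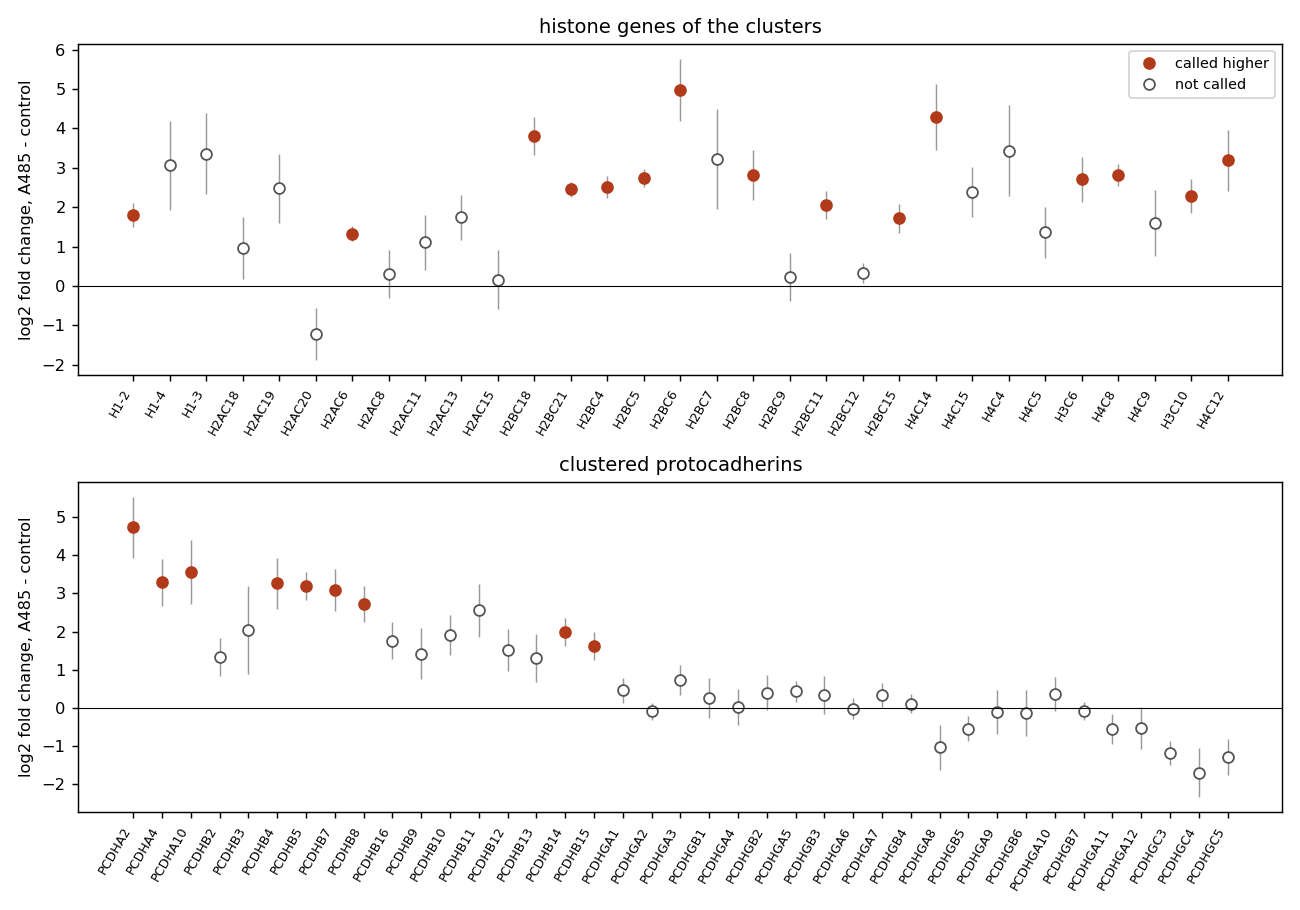
Points give the log2 fold change of A485 against control with its standard error for tested histone genes (upper, by class) and clustered protocadherins (lower, alpha and beta members first, then gamma); filled points were called higher. Of the histone genes shown H2AC20 alone lay below 0; of the protocadherins 9 alpha and beta members were called and the gamma members lay on either side of 0, with a median whose sign flips with equal totals and with quantile normalization.

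Most other large rises were of single genes. ABCA3, a lipid transporter of lamellar bodies (chromosome 16, 2275881 to 2340746), measured 116 and 33.0 in the control libraries and 1364 and 2556 in the A485 libraries (log2 fold change 4.89, SE 0.63, limma adjusted p 0.00838). RGN, the calcium-binding regucalcin, measured 4.28 and 3.67 in the control libraries and 137 and 102 in the A485 libraries (log2 fold change 4.59, SE 0.55, limma adjusted p 0.00724), and RPS6KL1, a kinase-like gene, 17.1 and 12.2 in the control libraries and 244 and 319 in the A485 libraries (log2 fold change 4.18, SE 0.45, limma adjusted p 0.00504). All 3 had few reads in control and many more in both A485 libraries. BCL2L11, the death-promoting BIM of the BCL2 family, rose from 122 and 255 in control to 1026 and 909 after A485 (log2 fold change 2.45, SE 0.39, limma adjusted p 0.0156). Of the metallothioneins, small metal-binding proteins, MT1X rose from 81.3 and 68.5 in control to 465 and 238 after A485 and MT1E from 1710.1 and 1449 in control to 3815 and 3467 after A485, and MT2A was not called (log2 fold change 0.68, SE 0.19, limma adjusted p 0.0644). Lysosomal genes had 3 higher and 4 lower of 52, with 3 without control 1, 1 without control 2, 0 without A485 1 and 0 without A485 2 lower. These lysosomal shares, 5.77% higher and 7.69% lower, stand beside 3.31% and 7.06% of all genes. FUCA1, a lysosomal fucosidase, rose from 412 and 422 in control to 2139 and 2276 after A485 (log2 fold change 2.40, SE 0.19, limma adjusted p 0.00239) and CTSC, a cathepsin, fell from 12222 and 17485 in control to 3622 and 3208 after A485 (log2 fold change -2.10, SE 0.22, limma adjusted p 0.0048).

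A survey that used no list grouped the same calls by symbol and by position. It overlaps with the groups above and is not a separate check of them. Symbols were grouped by the letters before the first digit into 187 families of at least 10 tested genes. Symbols with a single letter there, those of histone genes included, were left out. COL had 13 of 27 genes lower, the largest share. GAS followed with 5 of 11, ITGA with 5 of 12, KRT with 5 of 13, KLF with 4 of 15 and TNFRSF with 4 of 16; symbols such as GAS share letters and not a function. Antisense and divergent transcripts and pseudogenes named after a gene counted as members of its family. GAS6, GAS6-AS1 and GAS6-DT, from 1 locus, were each lower within GAS, and ITGA2-AS1 was lower beside ITGA2. Among the 187 families, which held no histone genes, the largest share of rises was that of PCDHB, with 7 of 17, PCDHB17P included. The H2B genes above had 8 of 11 higher. Along the chromosomes, 38 runs of at least 3 neighbouring tested genes were lower, with 126 genes, and 5 runs were higher, with 16 genes. Some runs held an antisense transcript beside its called gene, such as ACTA2-AS1 with ACTA2 and HMGA2-AS1 with HMGA2. As the strand setting is not stated, such neighbours may share reads. How many runs to expect of unlinked neighbours was not tested. One of the longest runs of falls, with 5 genes, was a cluster of pregnancy-specific glycoproteins, PSG1, PSG2, PSG5, PSG4 and PSG9 (chromosome 19, 42866464 to 43269530), with a median log2 fold change of -6.11. PSG4 measured 3532 and 5366 in the control libraries and 65.7 and 58.8 in the A485 libraries (log2 fold change -6.11, SE 0.28, limma adjusted p 0.000812), and PSG1 measured 248 and 186 in the control libraries and 0 in both A485 libraries, at least 167-fold lower against 3 reads over the group; these genes are near-copies and share reads. SLC38A1, SLC38A2, its antisense RNA, SLC38A4 and AMIGO2 formed another of 5 genes on chromosome 12 (46183063 to 47079959). The longest run of rises held FCGR1A, H2BC18, an unnamed gene and H4C14 (chromosome 1, 149782671 to 149839767); FCGR1A, an immunoglobulin receptor of myeloid cells, and H2BC18 overlap in their annotation, so that reads of FCGR1A, 7.49 and 1.22 in control against 96.9 and 144 after A485, may belong to its neighbour. FCGR1A and H4C14 passed the mean of 10 only through the A485 libraries, so their direction was fixed by that filter. Genes called lower had a median length of 40.5 kb against 25.6 kb for those called higher and 27.3 kb for those not called, and 5.06%, 10.5% and 10.7% of them had a single exon.

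The response was compared with that to MS-275, which blocks class I deacetylases, enzymes that take acetyl groups off histones. MS-275 was given to IMR90 cells in a separate experiment with 2 libraries and 2 control libraries of its own, listed in a table normalized apart, so each effect was taken within its table. Of 15130 genes tested in both, 576 (3.81%) differed between the effects, 484 lower after A485 relative to MS-275 and 92 higher. By list, 12 of 40 NRF2 targets and antioxidants differed, 11 of 55 matrix glycoproteins and proteoglycans, 10 of 34 ATF4 targets and 9 of 30 growth factors. NQO1, for example, changed by -3.68 after A485 and 1.60 after MS-275 on the log2 scale (difference -5.27, SE 0.74, limma adjusted p 0.0127), with 10577 and 27330.3 in its control libraries and 34234 and 77149 after MS-275. ACTA2 changed by -4.57 after A485 and -0.51 after MS-275 (difference -4.06, SE 0.41, limma adjusted p 0.00447) and IGFBP3, a binding protein of insulin-like growth factors, by -4.34 after A485 and 4.01 after MS-275 (difference -8.35, SE 0.83, limma adjusted p 0.00399). PSG1 had 217 and 88.9 in its control libraries and 4622 and 4438 after MS-275, a rise after MS-275 where both A485 libraries were at 0. Of 22 histone genes tested in both, 5 differed and all 5 were higher after A485, with list medians of 2.34 and -0.36: H2BC21 changed by 2.45 after A485 and -1.36 after MS-275 (difference 3.82, SE 0.41, limma adjusted p 0.00546), with 834 and 611 in its control libraries and 300.2 and 255 after MS-275. PCDHB5 changed by 3.19 after A485 and -1.77 after MS-275 (difference 4.96, SE 0.57, limma adjusted p 0.00677). By limma, the one tool run for this comparison, none of 77 ribosomal protein genes and none of 20 tRNA synthetases was called different, with 0 and 5 at an unadjusted p under 0.05. The ribosomal protein median was -0.80 after A485 and 0.02 after MS-275, and that of the tRNA synthetases -0.91 and -0.37. The absence of calls does not show equal effects. Some genes differed widely between the control libraries of MS-275, such as FN1 (637710 and 106613), while others such as AARS1 (8830 and 8083) did not. The study gives doses of both inhibitors for its staining or immunoblots of IMR90 cells, but not the doses and times of these libraries, so sizes are set side by side only. The count of 576 was 133 without A485 1, 166 without A485 2, 318 without control 1, 146 without control 2, 333 without the second MS-275 library and 338 without the second library of its control.

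**Figure D5:**
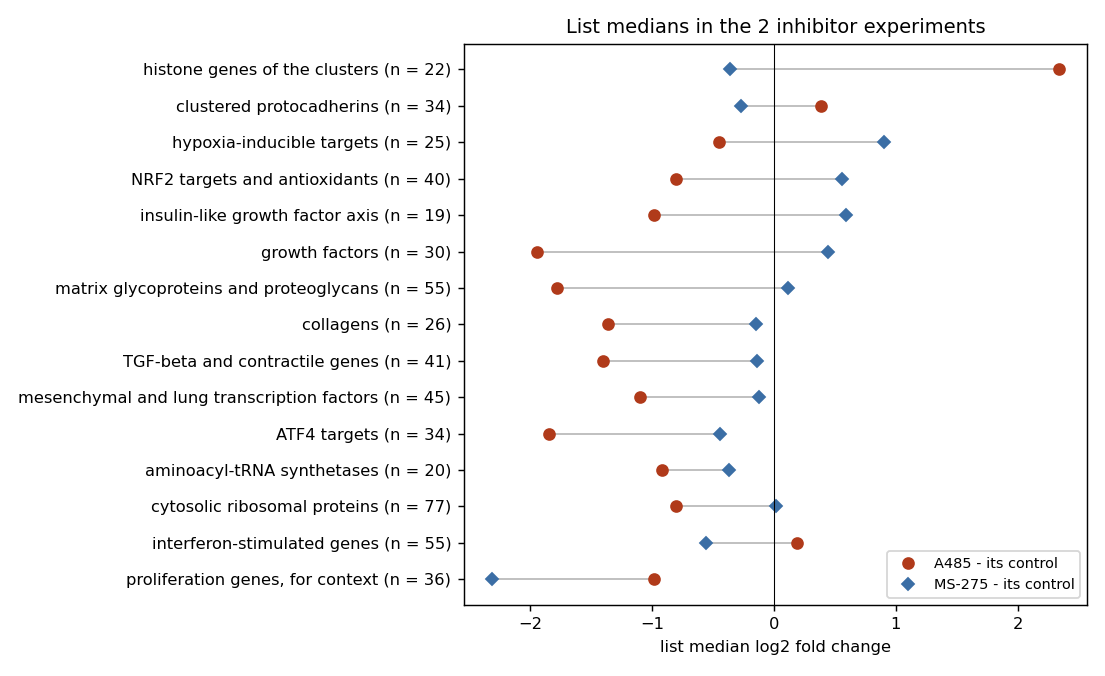
Each pair of points gives the median log2 fold change of a gene list after A485 (circles) and after MS-275 (diamonds), each against its own control libraries, over the n genes tested in both experiments. Histone genes had medians of 2.34 and -0.36, ATF4 targets -1.84 and -0.45, and growth factors -1.95 and 0.45; proliferation genes, whose A485 value rests on control 1, had -0.98 and -2.31.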

How the data were processed

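Total RNA of IMR90 cells was extracted with TRIzol and sequenced, and whether poly(A) or ribosomal depletion was used is not given in the sources used here. Per the study's methods, the authors trimmed reads with Trim Galore (version 0.6.10), aligned them to hg38 with HISAT2 (2.2.1), sorted them with SAMtools (1.7), counted them per gene with featureCounts (2.0.6) and divided the counts by DESeq2 (1.34.0) size factors. The annotation and the strand setting were not given in the sources used here. The deposited values, a signal per gene and library, were therefore counts divided by 1 factor per library. All values came out as whole reads within 0.01 reads once the factor was undone, which gave the totals stated above. Every listed gene had at least 10 reads in its second-highest library, so a gene with fewer was not listed.

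Genes whose mean of the 4 libraries reached 10 were tested on log2(value + 1), a scale that understates the change of low genes. The test was that of limma (3.58.1 in R 4.3.3), with a variance trend on intensity, without covariates, and with p-values adjusted by Benjamini-Hochberg across all genes tested. A gene was called when its adjusted p was under 0.05 and its log2 fold change was over 1 in size. edgeR (4.0.16) and DESeq2 (1.42.0) were run on the recovered reads as alternatives, beside other scalings, pseudocounts, filters and left-out libraries. The effects of A485 and MS-275 were compared in 1 limma fit over 8 libraries, each effect taken within its own experiment. The scripts were tested on simulated data. Nothing in the labels says that the replicate numbers pair the libraries: same-numbered libraries deviated together across genes (Pearson r 0.316 across 16084 genes), but with 2 pairs this does not establish pairing.

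Gene lists and markers, and the rule for naming genes, were chosen with earlier results of these data known. Named were the genes of p300 and CBP, the 12 largest falls and rises with a group mean reaching 100, the 5 called members with the smallest adjusted p and the 3 with the highest mean in each list, leading members of 6 symbol families per direction and of 5 runs, the cell markers and 3 proliferation genes, and the text gives a selection of these. Of 16683 symbols, 16417 matched GENCODE v44. Figures were drawn with matplotlib (3.10.9). Some genes that met the rule are not reported here. Libraries with pyruvate and those of mouse muscle were not used here.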

Additional observations from a re-analysis of the deposited data

How the results depend on the processing

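With 2 libraries a group, replicates differed by more than counting noise at this depth. Genes called higher and lower numbered 258 and 582 with eBayes without trend, 1671 higher with equal library totals, and 2 to 196 higher and 114 to 648 lower when 1 library was left out, which leaves a group of 1 assumed to vary like the other. Other settings kept these counts within 1.5 times. With the replicate number as a replicate block, 870 genes were higher and 1616 lower, and 3110 genes differed between the A485 and MS-275 effects, in place of 576; the numbers share no stated origin. Leaving out 1 library gave 133 to 416 differing genes. Medians of log2 fold change moved, with equal library totals, to -1.45 for ATF4 targets, -1.41 for growth factors, -1.30 for matrix glycoproteins and proteoglycans, -1.01 for TGF-beta and contractile genes, -0.97 for collagens, -0.71 for mesenchymal transcription factors, -0.59 for the insulin-like growth factor axis, -0.52 for tRNA synthetases, -0.41 for NRF2 targets and antioxidants and -0.41 for ribosomal proteins. With quantile normalization they moved to -1.39 for matrix glycoproteins and proteoglycans, -0.72 for TGF-beta and contractile genes, -0.90 for collagens, -0.65 for tRNA synthetases and -0.35 for ribosomal proteins, and with TMM factors to -0.89 for tRNA synthetases. A pseudocount of 10 moved them to -1.37 for the matrix list and 1.61 for histone genes. When 1 library was left out the medians ranged from -1.99 to -1.70 for ATF4 targets, -1.84 to -1.21 for growth factors, -1.86 to -1.33 for the matrix list, -1.61 to -1.11 for TGF-beta and contractile genes, -1.66 to -1.11 for collagens, -1.18 to -0.97 for mesenchymal transcription factors, -1.65 to -0.91 for the insulin-like growth factor axis, -0.89 to -0.83 for tRNA synthetases, -0.99 to -0.78 for NRF2 targets and antioxidants, -0.96 to -0.65 for ribosomal proteins, 0.24 to 0.88 for protocadherins and 1.74 to 2.43 for histone genes. None of these 12 medians changed sign under any scaling, pseudocount, filter or left-out library tried. Of the genes named, 8 that were not called changed sign: TIMP1 to 0.30 with equal library totals and 0.56 with quantile normalization, FTL to 0.086 with quantile normalization, CXCL8 to 1.32 by DESeq2 and 1.36 by edgeR, and, when 1 library was left out, CREBBP (-0.18 to 0.31), EP300 (-0.16 to 0.59), DUSP1 (-0.041 to 0.84), FSTL1 (-0.041 to 0.47), TIMP1 (-0.37 to 0.18), CXCL1 (-4.64 to 5.61) and CXCL8 (-7.12 to 3.38). No called gene did. The cause of these moves was not tested.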

Other observations

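Lipid genes moved as single genes. Of 35 cholesterol genes 2 were lower and 2 higher, against 7.06% and 3.31% of all genes, with a median of -0.26 that turned positive with equal totals. TM7SF2, a sterol reductase, rose from 200.1 and 286 in control to 2939.7 and 2441 after A485 (log2 fold change 3.48, SE 0.26, limma adjusted p 0.00205), and the groups were far apart. Of 20 fatty acid synthesis and desaturation genes 3 were lower, 1 without control 1, 1 without control 2, 1 without A485 1 and 0 without A485 2. SCD, the stearoyl desaturase, fell from 11498 and 10099 in control to 2575 and 1473 after A485 (log2 fold change -2.47, SE 0.28, limma adjusted p 0.0062) and FASN, the fatty acid synthase, from 7738 and 5914 in control to 2934 and 2705 after A485 (log2 fold change -1.26, SE 0.19, limma adjusted p 0.0137).

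Several other groups had shares called lower above the 7.06% of all genes, such as coagulation and fibrinolysis (43.75%), retinoid and vitamin D (41.7%) and guidance genes (29.5%). Of 12 retinoid and vitamin D genes 5 were lower, 3 without control 1, 1 without control 2, 0 without A485 1 and 0 without A485 2, among them RDH10, an enzyme of retinoic acid synthesis, from 3586 and 5529.8 in control to 1029.9 and 849 after A485 (log2 fold change -2.25, SE 0.25, limma adjusted p 0.00594), and VDR, the vitamin D receptor, from 407 and 874 in control to 16.9 and 72.1 after A485 (log2 fold change -4.05, SE 0.74, limma adjusted p 0.0234). Of 16 coagulation and fibrinolysis genes 7 were lower and 1 higher, 6 without control 1, 3 without control 2, 2 without A485 1 and 4 without A485 2 lower, with PLAUR, the receptor of urokinase, at 3965 and 3175 in control against 774 and 739 after A485 (log2 fold change -2.23, SE 0.19, limma adjusted p 0.00274). Of 44 guidance genes 13 were lower and none higher, 8 without control 1, 4 without control 2, 2 without A485 1 and 3 without A485 2. NRP1, a semaphorin and VEGF coreceptor, fell from 11610.2 and 14560.1 in control to 1287 and 1475 after A485 (log2 fold change -3.24, SE 0.19, limma adjusted p 0.00117), and EPHB2, an ephrin receptor, from 6251 and 7868 in control to 1985 and 2051 after A485 (log2 fold change -1.80, SE 0.18, limma adjusted p 0.00438). Of 16 clock genes 4 were lower, 1 without control 1, 1 without control 2, 0 without A485 1 and 0 without A485 2, with PER2, a core repressor, at 302 and 207 in control against 70.0 and 58.8 after A485 (log2 fold change -1.95, SE 0.38, limma adjusted p 0.0284). Of 15 glucocorticoid receptor and target genes 4 were lower, 3 without control 1, 2 without control 2, 0 without A485 1 and 0 without A485 2, with HSD11B1, which regenerates cortisol, at 64.2 and 79.6 in control against 1.69 and 1.78 after A485 (log2 fold change -4.73, SE 0.63, limma adjusted p 0.00926). Ion channels went both ways, with 10 lower and 3 higher of 41, and 6 without control 1, 5 without control 2, 1 without A485 1 and 1 without A485 2 lower. KCNK2, a leak potassium channel, fell from 2094 and 925 in control to 13.5 and 12.5 after A485 and KCNT2, a sodium-activated potassium channel, rose from 173 and 142 in control to 659 and 788 after A485. Of 35 p53 targets 4 (11.4%) were lower and 2 (5.71%) higher, beside 7.06% and 3.31% of all genes. Their median of 0.05 ranged from -0.26 to 0.22 when 1 library was left out.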
